A study of Homo sapiens with 16 samples.

Results

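The genes IMMP2L, MACROD2, LRP1B, CNTNAP2, RBFOX1, CSMD1 and DLG2 are long human genes of 0.900 to 2.47 Mb, and several of them are classed as common fragile site genes or as neuronal genes. They were taken by name, and TOP2A cleavage cluster regions (CCRs) were assigned to a gene when the centre of the region lay in its RefSeq body. The 7 genes were 7 of 20033 protein-coding genes and spanned 13.9 Mb together. Their callable part, in 100 kb bins where any list had a region, was 0.498% of that of the genome. They held 1608 of 310038 regions in the vehicle list, 957 of 182582 after etoposide, 2308 of 415215 after genistein, 1114 of 202865 after mitoxantrone and 1713 of 359249 after p-benzoquinone (pBQ).

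The study mapped DNA bound covalently by topoisomerase II alpha (TOP2A) in K562, an established human leukaemia cell line with an erythroid character. Cells received etoposide at 25 µM for 1 h, genistein at 50 µM for 1 h, mitoxantrone at 2 µM for 1 h or pBQ at 8 µM for 4 h, and all drugs were added in DMSO at 0.05%. Control cells received DMSO alone for 1 or 4 h, and the labels do not say which library had which time. The pBQ exposure therefore differed from that of the other poisons in length, and the 4 drugs in dose, so their values are set side by side. TOP2A was immunocaptured from sonicated lysates and its DNA was released and sequenced. Each treatment is represented by 1 pooled list, drawn from 3 pre-amplified libraries each for DMSO and etoposide, 2 each for genistein and pBQ, and 1 for mitoxantrone. A further pBQ library has a title and a description that disagree on pre-amplification, and whether the pBQ list draws on it is not given. A pooled list has no replicate values, so differences between lists have no replicate check and no p-value. All intervals below are 95% intervals that cover counting error only.

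TOP2A passes one DNA duplex through a break in another and holds the broken ends on its own tyrosines until it reseals them. Etoposide, mitoxantrone and genistein are known to slow that resealing, and pBQ, a benzene metabolite, is known to modify the enzyme covalently. Genes of this length take longer than most to be transcribed and copied, and breaks in several of them under replication stress are well known in cultured cells. IMMP2L encodes a subunit of the mitochondrial inner membrane peptidase, MACROD2 a hydrolase that removes ADP-ribose from proteins, and LRP1B an endocytic receptor of the LDL receptor family. CNTNAP2 encodes an axonal adhesion protein of the neurexin family, RBFOX1 a neuronal splicing regulator, CSMD1 a membrane protein that regulates complement, and DLG2 a postsynaptic scaffold.

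Taken as a group, the genes were close to the genome average in every list. Their number of regions over the number expected from the list's density was 1.04 in DMSO (0.991 to 1.09), 0.957 in pBQ (0.912 to 1.00), 1.05 in etoposide (0.986 to 1.12), 1.12 in genistein (1.07 to 1.16) and 1.10 in mitoxantrone (1.04 to 1.17). The group's number of regions over DMSO, scaled to list size, was 0.919 after pBQ (0.858 to 0.985), 1.01 after etoposide (0.932 to 1.10), 1.07 after genistein (1.01 to 1.14) and 1.06 after mitoxantrone (0.980 to 1.14). The median of the 7 genes was 0.958 in DMSO, 0.967 in pBQ, 0.992 in etoposide, 1.15 in genistein and 1.12 in mitoxantrone. The 307 protein-coding genes of at least 500 kb had medians of 1.04, 0.973, 1.07, 1.10 and 1.08 in the same order. As a group the 7 genes were therefore near other long genes, and the differences lay between the genes.

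A gene was counted as higher when its density was at least 25% above that of the list and as lower when it was at least 20% below. In DMSO 1 of the 7 genes was higher, against 22.5% of the long genes, and 0 were lower, against 11.1%. In etoposide 1 was higher, against 21.5%, and 1 lower, against 2.93%. In genistein 0 were higher and 0 lower, against 13% and 3.58%. In mitoxantrone 1 was higher and 0 lower, against 20.5% and 5.86%. In pBQ 1 was higher and 2 were lower, against 23.8% and 29%. These counts were near those of long genes in general.

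**Figure D1:**
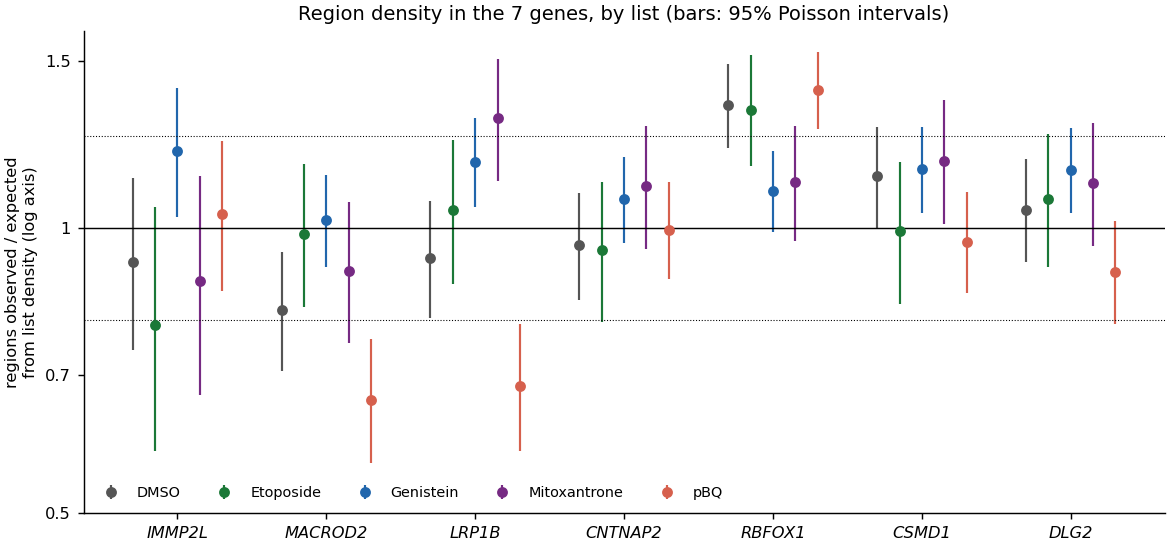
Regions observed over expected in each gene (log axis) for the 5 lists, with 95% Poisson intervals; dotted lines mark 25% above and 20% below the list's density. RBFOX1 is at 1.33 to 1.40 in DMSO, etoposide and pBQ and at 1.09 and 1.12 in genistein and mitoxantrone, while MACROD2 and LRP1B are at 0.658 and 0.680 in pBQ.

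RBFOX1 (chr16:5239721-7713340, hg38, + strand), the longest gene in the RefSeq table, had the highest density of the 7 in 3 lists. It held 374 regions in DMSO, 450 in pBQ, 218 in etoposide, 407 in genistein and 203 in mitoxantrone. These were 1.35 times the expected number in DMSO (1.21 to 1.49), 1.33 in etoposide (1.16 to 1.52) and 1.40 in pBQ (1.27 to 1.53). In genistein the ratio was 1.09 (0.991 to 1.21) and in mitoxantrone 1.12 (0.969 to 1.28), and other genes were higher. Only in pBQ did its interval stand clear of the next gene, IMMP2L. The pBQ excess was shared by the surroundings of the gene: against the 1 Mb on each side RBFOX1 stood at 1.01 in pBQ. On that reference it was at 1.27 in DMSO, 1.57 in etoposide, 1.23 in genistein and 1.24 in mitoxantrone. The low genistein and mitoxantrone ratios of RBFOX1 relative to the other lists thus held against the whole list. Against the 1 Mb on each side they were close to DMSO, below etoposide and above pBQ.

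MACROD2 (chr20:13995516-16053197, + strand) was the lowest of the 7 in DMSO, genistein and pBQ. Its 189 DMSO regions were 0.819 of the number expected (0.706 to 0.944) and its 176 pBQ regions 0.658 (0.564 to 0.763). The 134 regions in etoposide, 315 in genistein and 136 in mitoxantrone gave 0.985, 1.02 and 0.900, with intervals that held 1. The low DMSO rank of MACROD2 was not kept without weak regions: with only values of at least 4 its ratio was 0.946, above IMMP2L at 0.863 and CNTNAP2 at 0.937, and with values of at least 8 it was 1.03. MACROD2 also carried one of the strongest regions of the DMSO list, at chr20:15735476-15736340, 865 bp wide, with a deposited value of 129 that ranked 19 in the list.

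LRP1B (chr2:140231423-142131016) had the widest range of the 7 genes over the lists. It held 198 regions in DMSO, 168 in pBQ, 131 in etoposide, 335 in genistein and 182 in mitoxantrone. The mitoxantrone number was 1.30 times the expected one (1.12 to 1.51), the highest of the 7 genes in that list, and the pBQ number was 0.680 of it (0.581 to 0.791). Genistein was at 1.17 (1.05 to 1.31), etoposide at 1.04 and DMSO at 0.929. The low pBQ density extended beyond the gene, since against the 1 Mb on each side LRP1B was at 1.03 in pBQ, and in mitoxantrone it was at 1.16.

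IMMP2L (chr7:110662644-111562492, - strand) is the shortest of the genes, and its intervals were the widest. It held 93 regions in DMSO, 121 in pBQ, 47 in etoposide, 163 in genistein and 58 in mitoxantrone. Ratios were 0.921, 1.03, 0.790, 1.21 and 0.878 in the same order, and only the genistein interval (1.03 to 1.41) left out 1. The etoposide ratio was past 20% below, with an interval of 0.581 to 1.05.

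CNTNAP2 (chr7:146116801-148420998, + strand), CSMD1 (chr8:2935361-4994914) and DLG2 (chr11:83455012-85628373, - strand) were within 20% below and 25% above the density of every list. CNTNAP2 held 237, 138, 355, 179 and 285 regions in DMSO, etoposide, genistein, mitoxantrone and pBQ, at ratios of 0.958, 0.947, 1.07, 1.11 and 0.994. CSMD1 held 262, 135, 357, 178 and 259, at 1.13, 0.992, 1.15, 1.18 and 0.967. DLG2 held 255, 154, 376, 178 and 254, at 1.05, 1.07, 1.15, 1.12 and 0.899. For CSMD1 the DMSO, genistein and mitoxantrone intervals began at 1.00, 1.04 and 1.01. For DLG2 the genistein interval, 1.04 to 1.27, left out 1. With only values of at least 8 each of the 3 genes passed a limit once, CNTNAP2 in pBQ at 1.31, CSMD1 in DMSO at 1.32 and DLG2 in pBQ at 0.724. Against the 1 Mb on each side CNTNAP2 was at 1.27 in genistein.

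Neighbours in the order of the genes mostly did not differ beyond counting error. In DMSO the interval of RBFOX1 overlapped that of CSMD1 and was above those of the other 5 genes. In genistein all 7 intervals overlapped. In pBQ the order had 3 levels: RBFOX1, then IMMP2L, CNTNAP2, CSMD1 and DLG2 with overlapping intervals, then LRP1B and MACROD2. The boundary between DLG2 and LRP1B was narrow, since the interval of the first began at 0.792 and that of the other ended at 0.791.

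Regions were spread along the genes in all 5 lists. In the 134 full steps of 100 kb, the number of regions summed over the lists ran from 0 to 81 with a median of 56, beside a genome mean of 53.2. Among the 132 steps with regions the ratio of variance to mean was 1.21 in DMSO, 1.89 in pBQ, 1.01 in etoposide, 0.990 in genistein and 0.917 in mitoxantrone. Over all callable bins of the genome it was 1.83, 3.17, 1.31, 1.75 and 1.31 in the same order. The members' value was below the genome's in each list. Regions placed independently at a constant rate give a value of 1.

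Steps at 2 or more times the genome mean of a list were seen in pBQ alone. There were 2 such steps, both in RBFOX1, beside 3.2% of genome bins; they held 27 and 28 pBQ regions and began 200 kb and 1800 kb from the lower end of the gene. The 4 other lists had 0 such steps, against 1.12% of bins in DMSO, 1.42% in etoposide, 0.119% in genistein and 1.35% in mitoxantrone. Among the 132 non-empty steps the fewest regions over the 5 lists were 33, a number shared by a MACROD2 step and an RBFOX1 step. The MACROD2 step began 200 kb from the lower end, where the gene's own mean gives 46.2. It held 6 DMSO, 0 etoposide, 17 genistein, 6 mitoxantrone and 4 pBQ regions. The RBFOX1 step was the first 100 kb of that gene, whose own mean gives 66.8. There were 6 DMSO, 8 etoposide, 5 genistein, 4 mitoxantrone and 10 pBQ regions there, and a gap of 37.6 kb without any region covered the lower end. The genome has 963 gaps at least as long.

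Each gene was also divided into 3 equal parts of its length. Despite its low first step, RBFOX1 held 545, 536 and 571 regions from the lower to the upper part. Its fullest part held 1.07 times the regions of its emptiest, and only CSMD1 had a lower value. DLG2 held 442 regions in its lower part, 416 in the middle and 359 in the upper part, which carries the 5′ end of this - strand gene. MACROD2 held 291, 306 and 353, and LRP1B 315, 342 and 357, from the lower to the upper part. Over the 5 lists together the fullest part of a gene held 1.04 times (CSMD1) to 1.23 times (IMMP2L and DLG2) the regions of its emptiest. CNTNAP2 was taken without its empty end. Single lists reached higher values, up to 1.92 times in IMMP2L in etoposide, where the parts held 12, 12 and 23 regions.

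**Figure D2:**
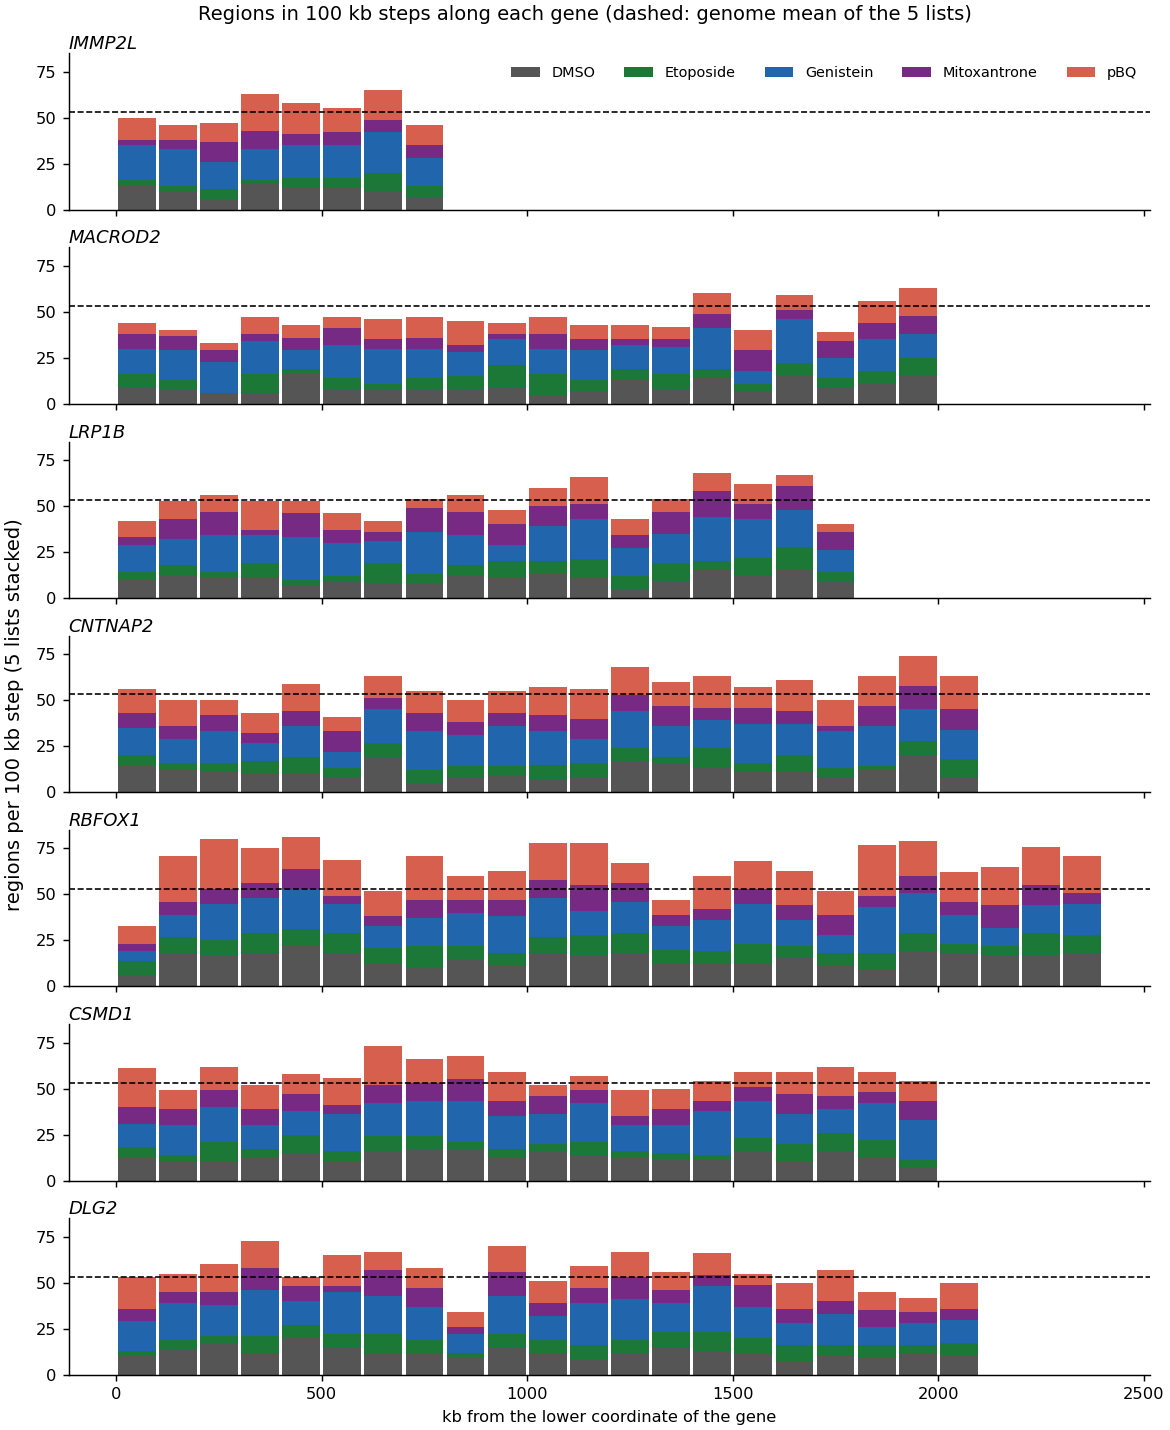
Regions in each full 100 kb step from the lower coordinate of the 7 genes, with the 5 lists stacked; the dashed line is the genome mean of 53.2. Most RBFOX1 steps lie above the line and most MACROD2 steps below it, the first RBFOX1 step has 33 regions, and the last 2 CNTNAP2 steps have 0.

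CNTNAP2 was the exception to the spread of regions along the genes. From chr7:148214579-148490140, across the 3′ end of the gene, 0 regions were called in any of the 5 lists over 275.6 kb, of which 206 kb lie in the gene. At the densities of the lists the part inside the gene would hold 23.2 DMSO, 13.6 etoposide, 31.0 genistein, 15.2 mitoxantrone and 26.8 pBQ regions, 109.8 in all. The 2 steps of the 134 that were empty in every list lay here, beside 8.13% of all 100 kb bins. That share counts every bin from the first to the last region of each chromosome, inside genes or not, so it is not a share of gene bodies. Gaps at least as long numbered 144 in the genome, and the longest gap in each of the other genes was 14.5 to 37.6 kb.

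Regions resumed on both sides of the gap. In 25 kb steps within 600 kb of the gene's upper end, 10 of 48 steps were empty and the other 38 held 5 to 23 regions over the 5 lists, with a median of 14.5. Without the empty stretch CNTNAP2 was at 1.01 in DMSO, 1.04 in pBQ, 0.995 in etoposide, 1.13 in genistein and 1.16 in mitoxantrone. Why the stretch held no region was not tested.

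**Figure D3:**
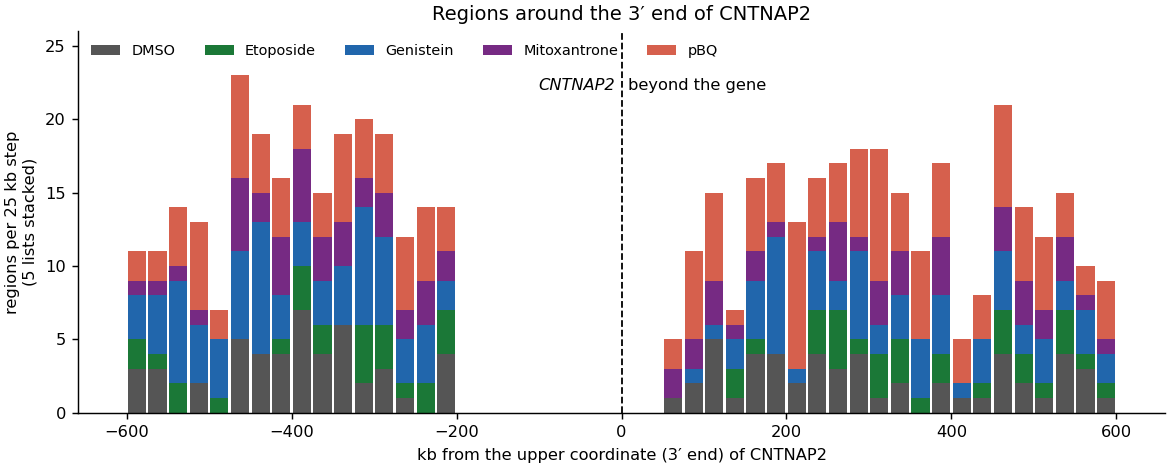
Regions per 25 kb step (5 lists stacked) by distance from the upper coordinate of CNTNAP2, its 3′ end. The 10 empty steps run from 200 kb inside the gene to 50 kb beyond it, and the steps on both sides hold 5 to 23 regions.

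The poisons were then compared with DMSO gene by gene, as the ratio of region numbers divided by the ratio of list sizes. The 4 ratios of a gene share its DMSO regions. By the same limits, 0 genes were higher and 0 lower after etoposide, against 17.6% and 7.49% of long genes. After genistein 2 were higher and 0 lower, against 21.8% and 12.4%. After mitoxantrone 1 was higher and 0 lower, against 21.8% and 12.1%. After pBQ 0 were higher and 1 was lower, against 8.14% and 27%. Among genes of any length with at least 10 regions in either list, 20.1% were higher and 35% lower after etoposide, 29.8% and 27.3% after genistein, 22.3% and 36.6% after mitoxantrone, and 35.7% and 23.3% after pBQ.

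LRP1B accounted for 3 of these 4 calls. Its ratio over DMSO was 1.40 after mitoxantrone (1.14 to 1.73), 1.26 after genistein (1.06 to 1.51), 0.732 after pBQ (0.593 to 0.904) and 1.12 after etoposide (0.894 to 1.41). With only values of at least 8 its ratio was 1.01 after mitoxantrone, 1.02 after genistein and 0.578 after pBQ. With values of at least 4 the genistein ratio was 1.15. One cut-off keeps unlike parts of the lists, whose median values were 6.24 in DMSO, 4.83 in pBQ, 12.9 in genistein and 13.3 in mitoxantrone. These ratios therefore cannot show whether the calls depend on weak regions. Among the 307 long genes the mitoxantrone ratio ranked 28 from the top and the pBQ ratio 260. The remaining call was IMMP2L after genistein, at 1.31 (1.01 to 1.71). RBFOX1 was at 0.813 after genistein (0.704 to 0.938) and 0.830 after mitoxantrone (0.696 to 0.987), against 0.990 after etoposide and 1.04 after pBQ. MACROD2 was at 1.24 after genistein (1.04 to 1.50) and 0.804 after pBQ (0.651 to 0.992).

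CNTNAP2, CSMD1 and DLG2 had intervals that held 1 with every poison. CNTNAP2 ran from 0.989 after etoposide to 1.15 after mitoxantrone, CSMD1 from 0.853 after pBQ to 1.04 after mitoxantrone, and DLG2 from 0.860 after pBQ to 1.10 after genistein. In all, 8 of the 28 gene ratios had intervals that left out 1, against 16.1% of such ratios over the long genes. The 7 genes are longer than most of the 307 and hold more regions, so their intervals are narrower and these shares are not on an equal footing.

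**Figure D4:**
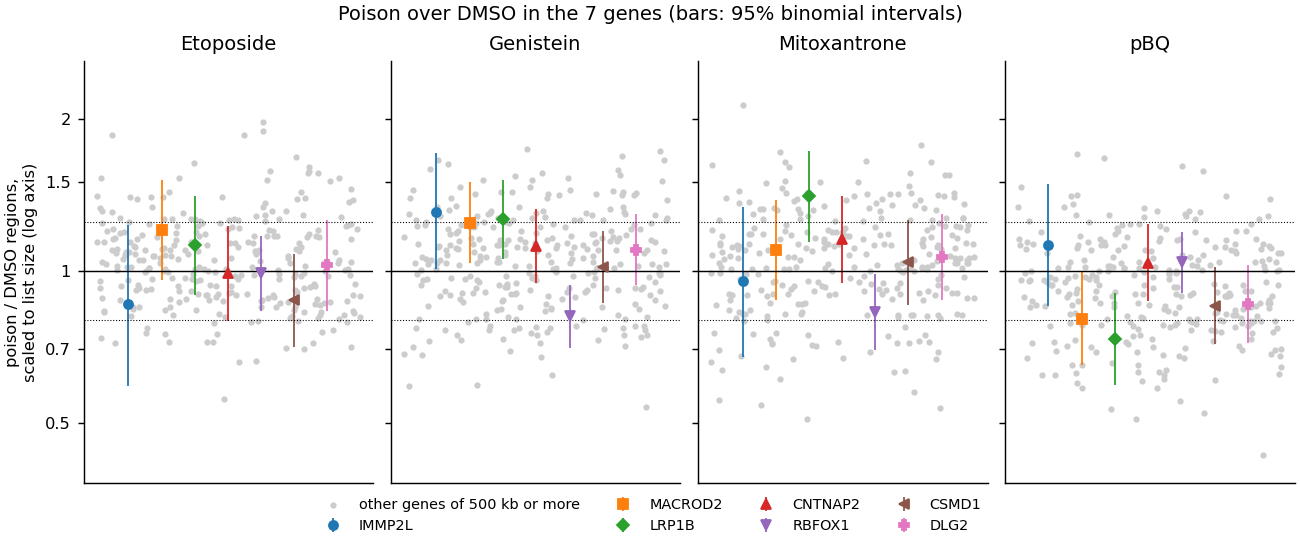
Poison over DMSO regions, scaled to list size (log axis), for the 7 genes with 95% binomial intervals and for the other genes of at least 500 kb in grey; dotted lines mark 25% above and 20% below 1. LRP1B is at 1.40 after mitoxantrone and 0.732 after pBQ, and all 7 genes lie inside the spread of the long genes.

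In some genes the differences between lists went with a property of the deposited values that was largely tied to treatment. The value of a region falls on a ladder of equal steps, and each list mixes 1 to 3 ladders. Steps were fine (0.228 to 0.247) in both pBQ ladders, in 1 of 2 DMSO ladders and in 2 of 3 etoposide ladders. They were coarse (0.324 to 0.359) in both genistein ladders, in the mitoxantrone ladder and in the remaining DMSO and etoposide ladders. The sources used here do not say which library gave which ladder. Values that lay on no ladder or on more than 1 ladder of a list, or were 30 or more, were left out, 13.5% to 33.2% of a list.

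RBFOX1 was above and MACROD2 below the expected number in each of the 5 fine ladders, and LRP1B was below it in 4 of them. Over the 5 fine ladders RBFOX1 ran from 1.31 to 1.74 times the expected number, and over the 5 coarse ladders from 0.990 to 1.23, so the 2 ranges did not overlap. For MACROD2 they were 0.488 to 0.812 and 0.957 to 1.26, also without overlap. LRP1B ran from 0.466 to 1.13 over the fine and from 1.08 to 1.35 over the coarse ladders, where its highest fine value rested on 10 regions.

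Within the DMSO list the intervals of the 2 ladders were apart for MACROD2, barely apart for LRP1B and overlapping for RBFOX1. MACROD2 had 44 fine-step values against 90.1 expected, a ratio of 0.488 (0.355 to 0.655), and 106 coarse-step values, a ratio of 1.06 (0.864 to 1.28). LRP1B had 0.673 (0.508 to 0.874) and 1.08 (0.878 to 1.31), and RBFOX1 1.48 (1.26 to 1.72) and 1.23 (1.04 to 1.44). Low densities of MACROD2 and LRP1B among fine-step values were therefore also present without pBQ. DLG2 ran from 0.889 to 0.956 over the fine and from 1.10 to 1.18 over the coarse ladders. The median of the 307 long genes moved the same way, from 0.938 to 0.986 over the fine and from 1.09 to 1.12 over the coarse ladders, while RBFOX1 went the other way. In CSMD1, CNTNAP2 and IMMP2L the ranges overlapped, as they did in LRP1B, so that 3 of the 7 genes had separate ranges, against 29% of the long genes.

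**Figure D5:**
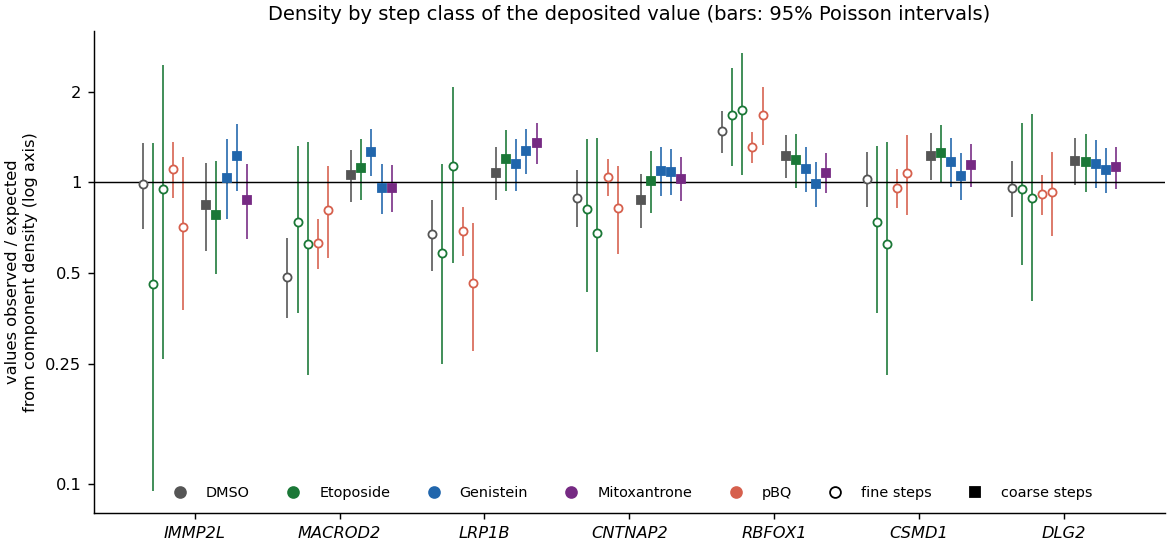
Deposited values observed over expected in each gene (log axis) for the 5 fine-step ladders (open circles) and 5 coarse-step ladders (filled squares), coloured by list, with 95% Poisson intervals. RBFOX1 is at 1.31 to 1.74 with fine and 0.990 to 1.23 with coarse steps, and MACROD2 at 0.488 to 0.812 and 0.957 to 1.26.

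Each poison ladder was then set against the DMSO ladder of the same class, a comparison added after the values were seen. Of 56 gene ratios, 55 had intervals that held 1. Ladders hold fewer values than whole lists, so these intervals are wider, and the ratios themselves did not all move towards 1. By size alone 7 of the 56 were at least 25% above 1 and 6 at least 20% below. Most of them were in the 2 fine etoposide ladders or the smaller pBQ ladder, which hold the fewest values. The share of long genes past these limits within class was not counted, so the 2 numbers cannot be read against a background. The 1 ratio whose interval left out 1 was that of MACROD2 in the smaller pBQ ladder, at 1.66 (1.03 to 2.66). In the larger pBQ ladder MACROD2 was at 1.29 (0.901 to 1.87). Both were opposite in direction to its pBQ ratio over the whole list, 0.804. LRP1B was at 1.03 (0.742 to 1.44) and 0.692 (0.383 to 1.19) in the 2 pBQ ladders, at 1.06 and 1.18 in genistein, and 25.3% above 1 in mitoxantrone, still past the limit, with an interval of 0.971 to 1.62. IMMP2L was at 1.23 and 1.45 in the genistein ladders, beside 1.31 over the whole list. CNTNAP2 was 24.99% and 24.4% above 1 there, just short of the limit, beside 1.12 over the whole list. RBFOX1 was at 0.903 and 0.808 in genistein and 0.878 in mitoxantrone, each with an interval that held 1. Over the 307 long genes the share of ratios whose intervals left out 1 was 2.93% within class. At this depth smaller differences between a poison and DMSO were not detectable.

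Most regions in the 7 genes belonged to 1 list. The regions of all lists merged to 6828 in these genes, and 6047 of them, 88.6%, came from 1 list, beside 87.8% in the genome. The share of regions that overlapped a region of another list by at least 1 bp was 23.5% in DMSO (genome 24.4%), 20.0% in pBQ (21.1%), 25.9% in etoposide (27.4%), 18.8% in genistein (20.2%) and 22.5% in mitoxantrone (24.5%). The 5 shares were below the genome's, each with an interval that held the genome value. With an overlap of at least 50% of the shorter region the mitoxantrone interval, 13.4% to 17.7%, ended below the genome's 18.1%. RBFOX1 had the highest shared proportion in etoposide, 33.9% of its 218 regions (27.7% to 40.6%), and MACROD2 the lowest, 17.2% (11.2% to 24.6%).

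Recurrent positions were few. In 3 or more lists lay 78 merged regions, 1.14% beside 1.41% in the genome, and CSMD1 with 19, RBFOX1 with 18 and CNTNAP2 with 17 held most of them. The position found in all 5 lists was in LRP1B at chr2:140474298-140474751, where the values were 8.11 in DMSO, 2.65 in pBQ, 10.2 in etoposide, 9.68 in genistein and 19.4 in mitoxantrone, and no base was common to all. A region of DLG2 at chr11:84737025-84737275 had bases common to 4 lists, all but pBQ, with values of 4.39 to 8.09.

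Deposited values, which describe regions within a list, differed from the list's own by gene and list. In DMSO the median was 8.11 in MACROD2 and 7.78 in LRP1B, both above the 6.24 of the list. In genistein IMMP2L had a median of 15.8 against 12.9 for the list, and 30 of its 163 regions, 18.4%, were among the highest 10% of the list. In mitoxantrone 28 of 179 CNTNAP2 regions, 15.6%, were in the highest 10%, and 7 of 136 MACROD2 regions, 5.15%. Besides the MACROD2 region named above, the strongest were RBFOX1 regions at chr16:5499331-5499491 in DMSO (value 115, rank 32) and at chr16:6771754-6771912 in pBQ (66.5, rank 19), and a CNTNAP2 region at chr7:146453399-146453997 in pBQ (64.8, rank 22).

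The mitoxantrone list also carried an input signal for each region. Input was 0 in 22.5% of all mitoxantrone regions, in 12.1% of those in IMMP2L (4.99% to 23.3%) and in 15.6% in CNTNAP2 (10.7% to 21.8%). The other 5 genes were at 22.5% to 25.8%. Both genes with fewer zero inputs lie on chromosome 7. The IMMP2L interval held the genome's share and the CNTNAP2 interval ended below it.

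Regions at transcription start sites were looked for in the 18 RefSeq start windows of 5 of the genes, from 250 bases before to 50 after the start; LRP1B and CSMD1 had no window. Regions touched 1 window in DMSO (4.85% of all genes' windows), 4 in pBQ (7.35%), 0 in etoposide (2.56%), 1 in genistein (5.02%) and 1 in mitoxantrone (2.39%). The windows are shown because they are the start-site sequences at which a region was called. They are RefSeq sequences of GRCh38.p14, 5′ to 3′ on the gene's strand, with the bases covered by the region in capitals.
DLG2, chr11:83682239-83682538, - strand, DMSO region of value 2.54: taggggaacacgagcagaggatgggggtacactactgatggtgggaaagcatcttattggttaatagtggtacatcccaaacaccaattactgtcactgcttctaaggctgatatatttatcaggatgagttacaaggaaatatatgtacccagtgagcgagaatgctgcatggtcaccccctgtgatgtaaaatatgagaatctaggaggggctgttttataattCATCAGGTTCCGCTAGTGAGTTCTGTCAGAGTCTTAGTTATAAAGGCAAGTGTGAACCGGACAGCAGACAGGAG
DLG2, the same window, genistein region of value 13.6: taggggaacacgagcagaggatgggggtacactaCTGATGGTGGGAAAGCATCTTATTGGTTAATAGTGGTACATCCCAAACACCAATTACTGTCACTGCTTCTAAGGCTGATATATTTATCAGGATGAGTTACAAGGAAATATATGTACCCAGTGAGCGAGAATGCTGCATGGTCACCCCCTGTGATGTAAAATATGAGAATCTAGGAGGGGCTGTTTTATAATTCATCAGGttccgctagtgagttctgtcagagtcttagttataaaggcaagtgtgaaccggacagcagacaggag
RBFOX1, chr16:7509872-7510171, + strand, mitoxantrone region of value 9.07: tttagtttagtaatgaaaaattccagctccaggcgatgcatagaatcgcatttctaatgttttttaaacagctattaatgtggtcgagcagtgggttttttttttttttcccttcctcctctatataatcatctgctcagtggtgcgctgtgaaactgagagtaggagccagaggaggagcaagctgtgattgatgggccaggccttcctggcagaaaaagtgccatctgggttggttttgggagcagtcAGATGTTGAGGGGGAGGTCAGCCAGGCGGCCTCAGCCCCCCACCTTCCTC
DLG2, chr11:84437757-84438056, - strand, pBQ region of value 19.3: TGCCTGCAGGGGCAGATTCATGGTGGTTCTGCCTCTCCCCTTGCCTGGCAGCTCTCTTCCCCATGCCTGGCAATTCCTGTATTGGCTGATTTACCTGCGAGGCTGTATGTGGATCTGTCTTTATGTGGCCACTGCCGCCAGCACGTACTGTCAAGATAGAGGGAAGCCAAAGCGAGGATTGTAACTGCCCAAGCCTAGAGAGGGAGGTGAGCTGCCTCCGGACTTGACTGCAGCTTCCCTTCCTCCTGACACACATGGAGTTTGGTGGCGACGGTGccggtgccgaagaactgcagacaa
IMMP2L, chr7:111562443-111562742, - strand, pBQ region of value 2.89: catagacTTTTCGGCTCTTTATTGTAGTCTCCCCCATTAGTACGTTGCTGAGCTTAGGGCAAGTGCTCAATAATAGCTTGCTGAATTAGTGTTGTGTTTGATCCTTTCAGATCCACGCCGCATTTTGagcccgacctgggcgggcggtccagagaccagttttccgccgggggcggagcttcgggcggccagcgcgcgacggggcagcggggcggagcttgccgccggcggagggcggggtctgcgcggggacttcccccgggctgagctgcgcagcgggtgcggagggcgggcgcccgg

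The DLG2 window touched in 2 lists belongs to an internal start of the gene. The DMSO region covered 74 bases around and after the start site, and the genistein region 199 bases before it, and the 2 regions overlapped at their ends. The pBQ region of the other DLG2 window covered 276 of its 300 bases. The IMMP2L window, at the gene's outer start, is 65% G and C as a whole. Its pBQ region covered 120 bases upstream of the start and did not reach the bases next to it. That region lies outside the gene body and is not among the gene's 121 pBQ regions. The remaining pBQ windows were another DLG2 start at chr11:84317288-84317587, covered over 76 bases, and an RBFOX1 start at chr16:6018774-6019073, covered over 20.

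Other long genes gave a frame for these values. Of 22 further genes named for common fragile sites, 21 were of at least 500 kb, and 11 of these were at least 20% below the pBQ density, with a median of 0.790, beside 29% of all long genes. Among 35 further long neuronal genes 12 were, with a median of 0.912. In the fragile list ESRRG was the highest on average (1.32 in DMSO, 1.18 in pBQ) and NBEA the lowest (0.830 in DMSO, 0.358 in pBQ). In the neuronal list CSMD2 was the highest (1.89 in DMSO, 2.09 in pBQ) and ERBB4 the lowest (0.720 in DMSO, 0.469 in pBQ). In pBQ both NBEA and ERBB4 lay below MACROD2, the lowest of the 7.

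The gene most alike to each member, by the Euclidean distance of log2 density over the 5 lists, was ASTN2 for RBFOX1 (distance 0.16, with 1.46, 1.31, 1.08, 1.06 and 1.45 in DMSO, etoposide, genistein, mitoxantrone and pBQ). It was EYS for MACROD2 (0.19), PCDH15 for LRP1B (0.16), SLC44A5 for IMMP2L (0.18), TBC1D5 for CNTNAP2 (0.13), LRRC4C for CSMD1 (0.18) and KCNIP4 for DLG2 (0.11). The median distance from a member to the long genes was 0.59 to 0.86. ASTN2 was chosen for its likeness to RBFOX1 in these 5 densities. That it too was high in DMSO, etoposide and pBQ and near 1 in genistein and mitoxantrone follows from the choice. PCDH15, chosen for its likeness to LRP1B, was at 1.26 in mitoxantrone and 0.695 in pBQ.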

How the data were processed

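TOP2A-bound DNA of K562 cells was sequenced in 16 libraries, 2 of them input; libraries that were not pre-amplified were not analysed here. Per the submitters' processing notes, the tools were Bowtie2 2.1.0 and SAMtools 0.1.19 and the build hg38. How regions were called is not given in the sources used here. As the authors deposited them, regions come in 1 union list for each treatment, each with a score whose unit is not stated; the deposited mitoxantrone list, matched to its library through the treatment name, also holds an input signal. The depth of each library is unknown, since the lists hold called regions. Intervals are computed on numbers of regions and cover counting error only, because each treatment has 1 pooled list without replicate values. Amplified reads that carry no molecular identifier are also not independent molecules.

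Regions on chromosomes 1 to 22, X and Y were kept, and overlapping entries were joined, which changed the genistein list alone, from 425777 to 415215. Where a region had several values the highest was used. Expected numbers came from the list's regions per callable Mb, callable meaning 100 kb bins that any list touches (2762.9 Mb). Density has exact Poisson intervals, and ratios over DMSO and shares have exact binomial (Clopper-Pearson) ones. The members' background was the 307 protein-coding genes of at least 500 kb that were at least 50% callable. Gene positions and start windows came from RefSeq, GRCh38.p14. The ladders were found by a search over step sizes, with the number per list set by hand. Scripts used Python 3.11.15, numpy 2.4.6, pandas 2.3.3 and scipy 1.17.1 and were tested on simulated data. The members and gene lists were chosen with earlier results of these data known. Named besides the members are the genes with the highest and lowest mean log2 density of each list of other long genes, and the long gene nearest to each member. Region values, the overlap rule, the reference for expected numbers and the step size were varied.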

Additional observations from a re-analysis of the deposited data

How the results depend on the processing

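Values of single genes stayed within their 95% interval in 190 of 215 alternative densities and 101 of 112 alternative ratios that used whole lists, and in 48 of 70 densities and 40 of 56 ratios by ladder. The density of LRP1B in pBQ turned from 0.680 to 1.03 against the 1 Mb on each side. Its pBQ over DMSO ratio turned from 0.732 to 1.03 in the larger fine ladder. That of MACROD2 went from 0.804 to 1.29 in the larger and 1.66 in the smaller pBQ ladder. For the 7 genes as a group, only regions with a value of at least 8 gave 1.13 in DMSO and 0.881 in pBQ, and ratios over DMSO of 0.989 for genistein, 0.951 for mitoxantrone and 0.777 for pBQ. Those ratios over DMSO compare unlike parts of the lists, because the lists differ in their median value. Against the same chromosome outside the gene the group was at 0.986 in DMSO and 0.866 in pBQ, and against 1 Mb on each side at 0.911 in pBQ. By ladder it was at 0.943 in the fine DMSO ladder, and at 1.13 in the coarse and 0.914 and 0.967 in the fine etoposide ladders. Within class its ratio was 0.991 in a genistein ladder and 1.01 and 1.03 in the pBQ ladders. With 50 kb steps 4 were empty in every list, and with 200 kb steps 0. With an overlap of at least 50% of the shorter region the shared proportion was 14.1% for pBQ, 13.3% for genistein, 17.6% for DMSO, 15.4% for mitoxantrone and 18.7% for etoposide, as the stricter rule counts fewer overlaps; for the other changes the cause was not tested. The ladder comparison with DMSO and the removal of the empty CNTNAP2 stretch were added after the data were seen. No paired analysis was possible because each treatment has 1 pooled list. Numbers of 47 to 163 regions in a list limit IMMP2L most.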
